A study of Homo sapiens with 2 samples.

Results

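The cytosolic ribosomal proteins are the protein components of the ribosomes that translate nuclear mRNAs in the cytoplasm. Members were the genes with symbols beginning RPL (large subunit) or RPS (small subunit) followed by a number, with an optional A, AL, L, L1 or X, plus RPLP0, RPLP1, RPLP2 and RPSA. They were read from probe sets that name exactly 1 gene. Of 19775 genes with such a probe set, 60 were members, 39 RPL and 21 RPS. The family was selected on earlier results of these arrays and the probe set of each gene on its mean log2 intensity, so the differences below are a description. RefSeq lists 85 protein-coding genes that meet the symbol rule. Of the others, 15 were named only by probe sets that list further genes as well, and 10 were not analysed here.

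The arrays compared MKN28, a gastric cancer cell line, labelled as overexpressing Sox2, with MKN28 labelled as control. Each group was 1 Affymetrix array, so every value is a difference between 2 arrays, with no replicate error and no test of the conditions. Sox2 came from a lentivirus that carries puromycin resistance, and the infected cells were selected with puromycin as a population. The labels do not state what the control cells received, and registers of cell lines treat MKN28 as a mislabelled MKN74, also a gastric line. Of the epithelial markers, EPCAM read only 4.96 in the Sox2-labelled array and 6.32 in the control-labelled array. Both lie below the median of all values, 34.25. In the same order, CDH1 read 78.6 and 91.3, KRT8 50.25 and 44.6, KRT18 70.1 and 88.5, and KRT19 40.6 and 37.7. All of these lie above that median. The mesenchymal marker VIM read far higher, at 5833 and 4288. The leukocyte marker PTPRC read 24.6 and 27.5, below the median. SOX2 itself read 172 and 123 by its brightest probe set, a log2 difference of 0.49, while its other probe sets differed by 0.31, -0.023 and -0.46. The target gene therefore did not check the label, and directions below rest on the labels.

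Ribosomal proteins are made in matched amounts, since each ribosome holds 1 copy of nearly every one and unassembled proteins are degraded. Their mRNAs are short and abundant. Most begin with a terminal oligopyrimidine tract, a C followed by a run of C and T, through which the TOR kinase and the RNA-binding protein LARP1 control their translation. In tumours and in growing cells the family is a readout of growth signalling, and mutations in single members cause Diamond-Blackfan anaemia, a failure of red cell production.

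RefSeq start sites are shown for the members on which the results below turn, and for EEF1A1 and TPT1, which carry the same kind of tract and differed by less than 0.1 between the arrays. Each window holds 10 bases before and 20 bases after the annotated start in GRCh38.p14, 5′ to 3′ on the coding strand. Capitals mark the pyrimidine tract nearest the start, where one began within 5 bases of it.
RPL35, chr9:124861938-124861967, minus strand: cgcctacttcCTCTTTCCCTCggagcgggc
RPL37A, chr2:216498834-216498863, plus strand: gcgtctcttcCTTTCTgggctcggacctag
RPL18, chr19:48619159-48619188, minus strand: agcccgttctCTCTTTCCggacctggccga
RPS16, chr19:39435930-39435959, minus strand: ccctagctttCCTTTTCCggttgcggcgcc
RPS14, chr5:150449720-150449749, minus strand: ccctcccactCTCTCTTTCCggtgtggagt
RPL27, chr17:42998409-42998438, plus strand: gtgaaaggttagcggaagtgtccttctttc
RPS6, chr9:19380217-19380246, minus strand: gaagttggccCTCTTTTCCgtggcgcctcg
RPS4X, chrX:72277229-72277258, minus strand: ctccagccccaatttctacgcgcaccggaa
EEF1A1, chr6:73521013-73521042, minus strand: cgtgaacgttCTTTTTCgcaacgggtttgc
TPT1, chr13:45341164-45341193, minus strand: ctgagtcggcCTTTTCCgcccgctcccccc
The search asked for a C followed by at least 4 C or T on the coding strand. Starting exactly at the annotated start, such a tract was found for 34 of the 52 members with a promoter entry (65.4%), against 4.60% of 15842 protein-coding promoters of the same length. Allowing the tract to begin up to 5 bases away gave 42 of 52 members and 22.1% of all promoters. No such tract lay at the start used here for RPL27 or RPS4X. For 48 of the 52 members that start is the outer end of the gene in RefSeq. For the other 4 it lies inside, by 17 bases for RPL32, 146 for RPL27, 4635 for RPL26L1 and 7393 for RPL6.

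Ribosomal protein genes as a group read slightly lower in the Sox2-labelled array than in the control-labelled array. Intensities are linear, and differences are log2 values of Sox2 minus control on the unscaled arrays. Where a gene had several probe sets, the one of highest mean log2 intensity stands for it, and a gene passed the filter if its higher value reached the median of all values. Of 60 members, 54 passed. Among them 51 lay below 0, which 50.4% of all 14253 genes past the filter did. The median difference was -0.32, or 0.80 times the control intensity, against -0.0032 over all genes. The interquartile range of the 54 members ran from -0.43 to -0.21. The differences were small for single genes and common across them. The robust SD of 1 probe set's difference was 0.28, estimated from 3471 genes read by exactly 2 such probe sets. It measures disagreement between probe sets of a gene, and an error between the arrays that both share is not in it. By more than this technical SD, 35 members were lower and none was higher, against 16.7% and 18.1% of all genes. Only RPL27 was at least 2-fold lower (background 0.645%) and no member at least 2-fold higher (background 2.05%). At 1.5-fold, 8 members were lower (background 3.77%) and none higher (background 6.46%). RPL36, RPL37A, RPS3 and RPS27L passed the filter through their control value alone, and RPL39L through the other array alone. Of the 49 members past it in both arrays, 47 lay below 0, 32 were lower by more than the technical SD and 7 were at least 1.5-fold lower.

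The 24 poly-A spike-in probe sets, which read transcripts added before labelling, were all lower in the Sox2-labelled array, with a median of -0.75. Other control probe sets went the other way. The 18 hybridisation controls had a median of 0.15, with 1 below 0, and the 3 for small-subunit rRNA 0.12, with 1 below 0. Scaling on the spike-ins would move the median of all genes to 0.75 and that of the members to 0.43, so signs here are relative to the bulk of genes. The gap between the members and all genes, -0.32, is the same on either scale, and 50 of 54 members lay below the median gene. In bulk RNA a lower level per cell and fewer cells of 1 kind cannot be told apart.

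**Figure D1:**
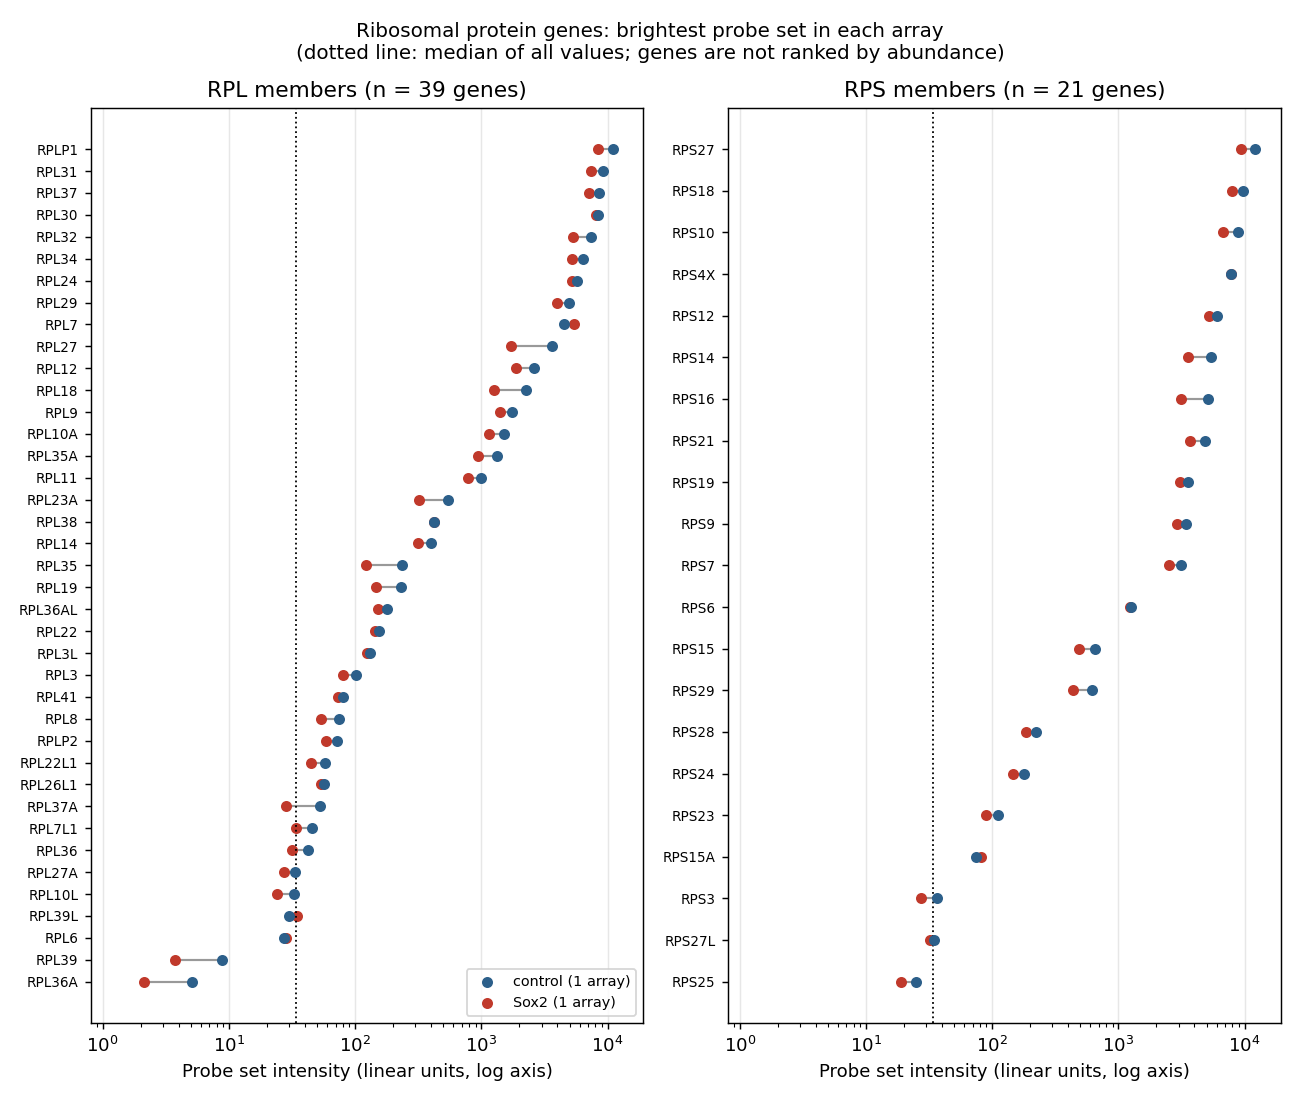
Intensity of the brightest probe set of each of 39 RPL and 21 RPS members in the Sox2-labelled array (red) and the control-labelled array (blue), 1 array each, on a log axis, with the median of all values dotted. On the unscaled arrays most red points lie to the left of their blue point; scaling on the spike-ins would move every red point to the right by 0.75 in log2. Positions along the axis reflect probe binding as well as transcript amount.

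Large and small subunit members had similar medians. The 34 RPL members past the filter had a median of -0.33 and an SD across genes of 0.30, with 32 below 0. The 20 RPS members had a median of -0.30 and an SD across genes of 0.20, with 19 below 0. The RPL median minus the RPS median was -0.030, a difference of list medians for which these arrays give no error. The range was wider for RPL, from -1.08 to 0.26, than for RPS, from -0.73 to 0.13. Genes are not replicates, so no test was made of the subunits.

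Among large subunit members, the lowest value relative to control was that of RPL27, a Diamond-Blackfan anaemia gene. It read 1711 in the Sox2-labelled array and 3626 in the control-labelled array, 2.12-fold lower (-1.08), by its only probe set. RPL35, which sits at the mouth of the tunnel through which the new protein leaves, read 122 against 234 (-0.94). RPL18, another Diamond-Blackfan anaemia gene, read 1268 against 2249.8 (-0.83). A second RPL18 probe set gave nearly the same difference, at 110 against 199 (-0.85), but the last read 58.9 against 55.2 (0.093). RPL37A, a zinc-binding protein, read 28.6 against 52.7 (-0.88) and passed the filter through its control value alone. Its other probe sets, under the filter, read 33.8 against 28.0 and 10.8 against 11.2.

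Proteins around the tunnel exit differed among themselves. RPL23A, which contacts the signal recognition particle there, read 323 against 549 (-0.76). RPL19, of the same region, read 147 against 232 (-0.66). RPL31, at the rim of the exit, read 7408 against 9129 (-0.30), a difference close to the technical SD. A second RPL31 probe set past the filter read 87.1 against 93.0 (-0.095). RPL22 read 145 against 155 (-0.093). The 5 members of this group past the filter had a median of -0.66, and 3 of them, RPL35, RPL23A and RPL19, were at least 1.5-fold lower, against 8 of 54 in the family and 3.77% of all genes. RPL39, which lines the tunnel, read only 3.77 against 8.76 and stood under the filter. This group was drawn up with the family's values known, and its median is a description.

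The stalk proteins, which recruit the elongation factors, lay near the family median by their brightest probe sets. RPLP1 read 8339.8 against 11109 (-0.41) and RPLP2 read 58.9 against 72.0 (-0.29), with no probe set for RPLP0 here. The other RPLP1 probe set read 76.8 against 81.4 (-0.083). RPL11, which with 5S rRNA binds and restrains MDM2, read 785 against 985 (-0.33).

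Other bright large subunit members were lower by similar or smaller amounts. RPL32 read 5351 against 7362 (-0.46), RPL34 5219 against 6438 (-0.30) and RPL37 7067 against 8487 (-0.26). The dimmer RPL37 probe sets gave 0.10, 0.11 and -0.23. RPL30, a protein at the interface of the subunits, was nearly level at 8060.2 against 8468 (-0.071). RPL38, known for its part in translating HOX mRNAs, read 418 against 422 (-0.013) by its brightest probe set. Another RPL38 probe set read 59.8 against 107 (-0.84) and the last 214 against 204 (0.071), so its probe sets disagree by more than the technical SD. RPL14 was also split, at 317 against 402 (-0.34), 119 against 116 (0.042) and 53 against 82.8 (-0.64). RPL7 was the highest of the family relative to control, at 5407 against 4501 (0.26), which is within the technical SD. A second RPL7 probe set past the filter read 57.5 against 60.7 (-0.078).

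**Figure D2:**
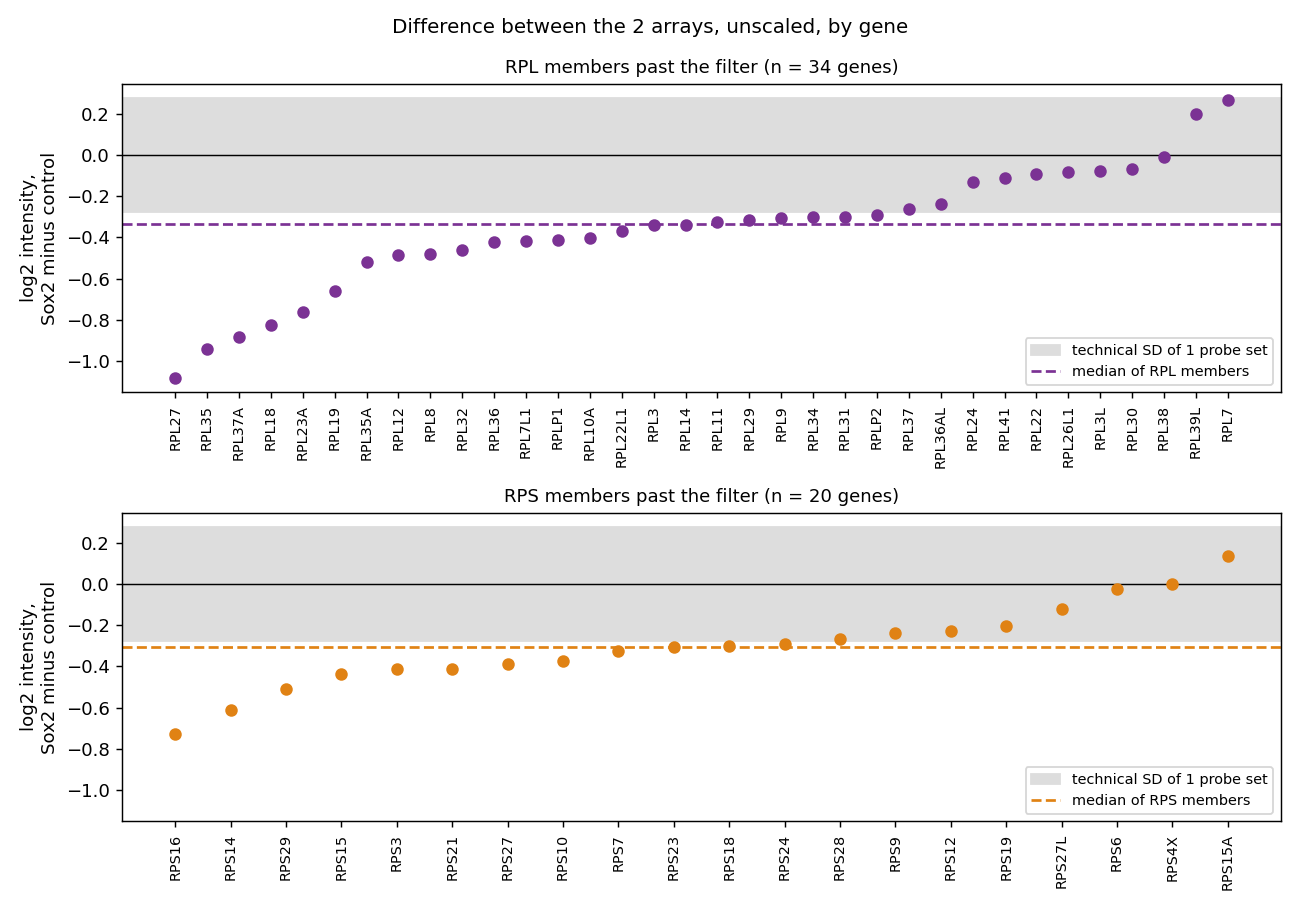
Log2 difference, Sox2 minus control on the unscaled arrays, for each member past the filter, sorted within 34 RPL (top) and 20 RPS (bottom) members; the grey band is the technical SD of 1 probe set, 0.28 on either side of 0, and the dashed line the median of each subunit. In both subunits the median, -0.33 and -0.30, lies just below the band, and no gene lies above it; scaling on the spike-ins would raise every point by 0.75.

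In the small subunit, RPS16 of the head, whose tail reaches the tRNA site, had the lowest value relative to control. Its brightest probe set read 3105 against 5148 (-0.73). A second read 211 against 633 (-1.59), 3.00-fold lower and the lowest of any family probe set past the filter, and the last one past the filter read 79.6 against 85.6 (-0.10). RPS14, a platform protein whose loss underlies the anaemia of the 5q deletion syndrome, read 3551 against 5428 (-0.61), while its other probe sets past the filter read 43.5 against 42.96 (0.018) and 33.1 against 40.4 (-0.29). RPS29, a zinc-binding protein of the head, read 437 against 623 (-0.51) by its brightest probe set and differed by 0.098 by its other one.

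Other head proteins had smaller differences by their brightest probe sets. RPS15, near the decoding site, read 485 against 657 (-0.44) by its brightest probe set and 59.3 against 55.0 (0.11) by its other one. RPS28 was split as well, at 185 against 222 (-0.27), 57.6 against 55.7 (0.048) and 45.5 against 64.9 (-0.51). RPS18 read 7879 against 9720.2 (-0.30). RPS10 read 6795 against 8821 (-0.38) by its brightest probe set. Its other probe sets past the filter read 7113 against 8267 (-0.22) and 340 against 650 (-0.94). RPS19, the gene most often mutated in Diamond-Blackfan anaemia, read 3101 against 3567 (-0.20), and its other probe sets differed by -0.17 each. RPS3, at the mRNA entry channel, read 27.4 against 36.5 (-0.41) and passed the filter through its control value alone. All 9 head proteins past the filter were below 0, with a median of -0.38.

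The 10 proteins of the body and platform past the filter had a median of -0.30, and 9 were below 0. RPS27 read 9285 against 12167 (-0.39). RPS21 read 3660.3 against 4876 (-0.41) by its brightest probe set and 57.6 against 66.1 (-0.20) by its other one. RPS7, which can also bind MDM2, read 2516 against 3150.2 (-0.32) by its brightest probe set. Its other one was level at 35.78 against 35.82 (-0.0016). The exceptions lay in this group. RPS6, the protein phosphorylated by S6 kinase, read 1236 against 1257 (-0.024), and a pair of dimmer RPS6 probe sets read higher, at 1147 against 966 (0.25) and 95.5 against 69.9 (0.45). RPS4X, encoded on the X chromosome, read 7799 against 7803 (-0.00080) and 3644 against 3441 (0.083) by its probe sets. RPS15A read 81.7 against 74.5 (0.13), but its other probe sets read 55.2 against 76.0 (-0.46) and 34.5 against 42.6 (-0.31). Of these, RPS6 and RPS4X had no probe set past the filter with a difference below -0.024.

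All 11 Diamond-Blackfan anaemia genes past the filter lay below 0, against 51 of 54 in the family as a whole and 50.4% of all genes. Their median was -0.38, and 3 were at least 1.5-fold lower, against 8 of 54 in the family and 3.77% of all genes. This group too was drawn up with the values known.

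Members whose symbols end in L or L1 are paralogs that mostly have narrow or low expression, and 7 of 8 passed the filter. Their median was -0.12, the value of RPS27L, against -0.33 for the other 47 members past the filter. RPL39L, a paralog of RPL39 known from testis, read 34.5 against 30.1 (0.20), just at the filter. RPL3L, of striated muscle, read 123 against 130.4 (-0.081), while RPL3 read 79.8 against 101 (-0.34). RPS27L, a p53 target, read 32.0 against 34.8 (-0.12) and passed the filter through its control value alone, while RPS27 differed by -0.39. The other RPS27L probe sets, under the filter, went the other way, at 10.75 against 6.32 and 7.54 against 4.19. RPL22L1 read 44.8 against 57.9 (-0.37), a larger gap than that of RPL22. RPL7L1, a pre-ribosome factor, read 34.3 against 45.8 (-0.42), on the other side of 0 from RPL7. RPL26L1 read 53.8 against 57.1 (-0.085) and RPL36AL 152 against 179 (-0.24). Most of these probe sets lay close to the median of all values, where signal over background is unknown.

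Members under the filter were RPL36A at 2.13 against 5.10, RPL39 at 3.77 against 8.76 and RPS25 at 19.0 against 25.02. RPL6 read 28.6 against 27.4, RPL10L, a testis paralog, 24.1 against 32.8 and RPL27A 27.5 against 33.7. Of the 6, only RPL6 was not lower. Just inside the filter stood RPL39L, RPS27L and RPS3, whose higher values were 34.5, 34.8 and 36.5. RPL39 and RPL36A belong to the standard cytosolic ribosome, yet read far below genes of the same complex, and no order of abundance among members can be read from these intensities.

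Several probe sets read most members, and they did not always give 1 answer. Among 29 members with at least 2 such readings past the filter, 16 had every one below 0, 13 were mixed and none had every one above 0. The 43 probe sets other than the brightest had a median of -0.16, with 30 below 0 (69.8%), against 49.2% below 0 among such further probe sets of all genes. Their own median intensity of 79.1 was low. The closest agreement was for RPS19, RPS9 (-0.24 and -0.28), RPL29 (-0.32 and -0.37), RPL12 (-0.49 and -0.54) and RPLP2 (-0.29 and -0.35), and the widest spread that of RPS16. Ribosomal protein genes have many processed pseudogenes, and probe sets ending in _x_at or _s_at can bind several transcripts. The 61 member probe sets of this kind past the filter had a median of -0.32, and the 36 with other endings -0.16, with 26 below 0.

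**Figure D3:**
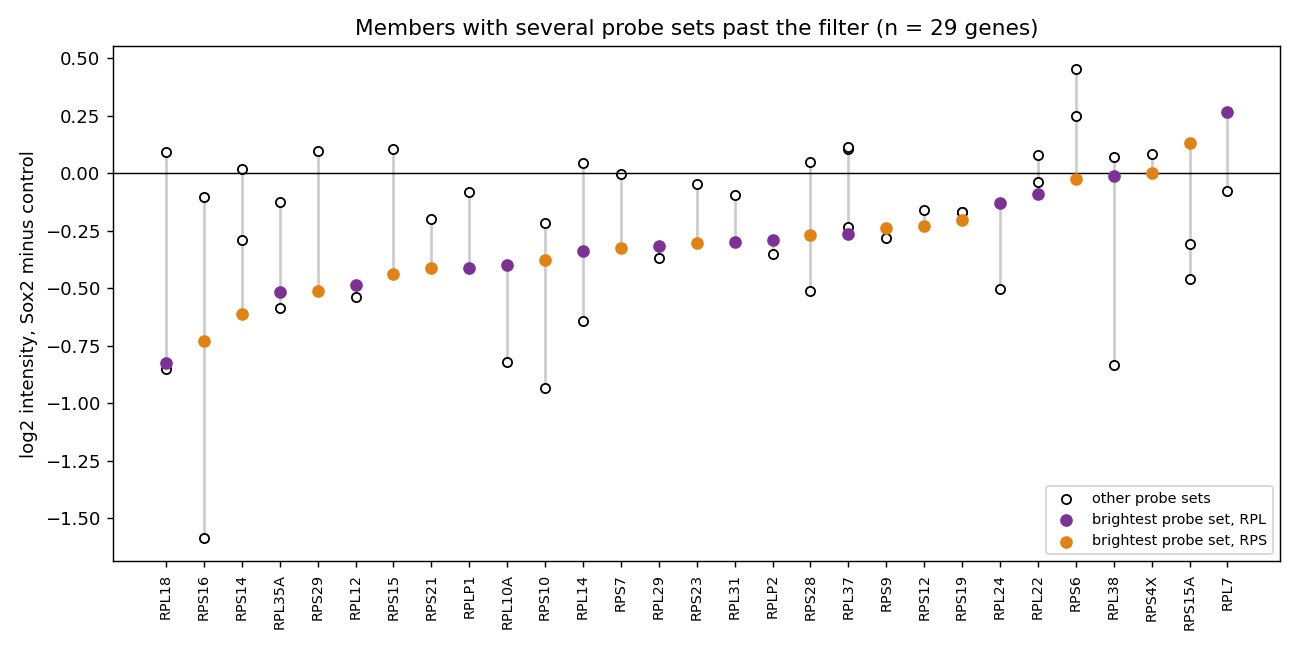
Log2 difference, Sox2 minus control on the unscaled arrays, of every probe set past the filter for the 29 members with several of them; filled points are the brightest probe set of a gene and open points the others. Most filled points lie below 0 and many open points nearer to it, with RPS16 spanning -1.59 to -0.10; scaling on the spike-ins would raise every point by 0.75.

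The members are bright and short genes, and both properties moved with the difference between the arrays. Among genes with a mean intensity of at least 1000, the 27 members had a median of -0.32, with 26 below 0. The 203 other genes at this level had a median of 0.24, with 34.5% below 0. Between 1000 and 3000 the medians were -0.44 for 8 members and 0.32 for 150 other genes. At 3000 and above they were -0.30 for 19 members and 0.085 for 53 other genes. The members and the other bright genes thus lay on opposite sides of 0 on the unscaled arrays, and both would lie above 0 after spike-in scaling. Between 300 and 1000 the medians were -0.39 for 6 members and 0.18 for 632 other genes. Between 34.25 and 100 they were -0.34 for 11 members and -0.014 for 9652 other genes. Across the 54 members the difference did not follow the level, with a Pearson r of -0.034 and a Spearman rho of 0.012. These points share the same 2 arrays.

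Short genes were lower in general, but by less than the members. The median genomic length was 5132 bases for the members and 24443 for all genes past the filter, and 39 of 54 members lay among genes shorter than the lower quartile of 8869 bases. Among those the members had a median of -0.37 and the 3519 other genes -0.050. After a smooth trend with genomic length was removed, the median of the members was -0.28 and 48 of 54 lay below 0.

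**Figure D4:**
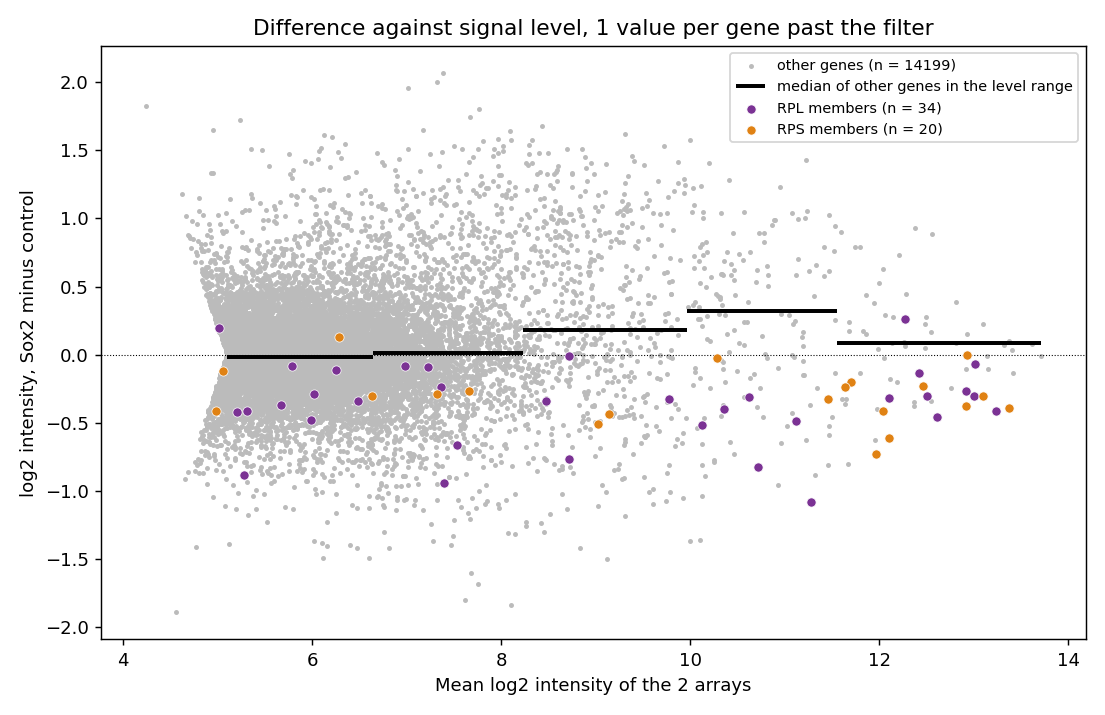
Log2 difference, Sox2 minus control on the unscaled arrays, against mean log2 intensity for 34 RPL members, 20 RPS members and 14199 other genes past the filter; black bars are medians of the other genes within 5 ranges of level. At mean intensities of at least 1000 the members have a median of -0.32 and the other genes 0.24; scaling on the spike-ins would raise all points by 0.75.

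Apart from FAU, the lists of other genes of ribosome production had medians close to 0 or above it on the unscaled arrays. FAU, which encodes a ribosomal protein of the small subunit fused to a ubiquitin-like protein and lies outside the symbol rule, read 4688 against 5954 (-0.35), close to the family median. RNA polymerase I and its factors, which transcribe rRNA, had a median of 0.0091 over 11 genes past the filter, and none reached 2-fold. POLR1F had the largest difference, at 24.1 against 37.6 (-0.64), and passed the filter through its control value alone. Large subunit assembly factors had a median of 0.068 over 20 genes, with 2 at least 2-fold higher and none lower, where 2.05% and 0.645% of all genes were. These were EFL1, a GTPase that releases the anti-association factor EIF6, at 130.3 against 47.9 (1.45), and LAS1L, of the pre-rRNA cleavage complex, at 655 against 312 (1.07). A second LAS1L probe set differed by only 0.30, at 39.1 against 31.7, so its 2-fold difference rests on 1 probe set.

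Small subunit assembly factors had a median of 0.049 over 32 genes, with 1 at least 2-fold higher and 1 lower. UTP3 read 115 against 55.1 (1.07) and IMP3, a protein of the U3 particle, 199 against 404 (-1.02). Proteins of the box C/D and H/ACA particles, which modify rRNA, had a median of 0.060 over 8 genes, and the largest difference was that of NOP10 at 2372 against 3410.1 (-0.52). The genes listed under TOR signalling to translation had a median of 0.033 over 14 genes, with none at 2-fold. LARP4, placed on that list, differed most by 1 probe set at 94.4 against 49.4 (0.94) but by -0.18 and 0.13 by others. Its place on the list is not evidence that it acts in TOR signalling. Of 7 genes that link ribosomal stress to p53, MDM4 was at least 2-fold higher at 314 against 125 (1.33) by a probe set ending in _x_at and under 2-fold, at 71.6 against 44.3 (0.69), by its other one, and the group's median was -0.0090.

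Other mRNAs known for a terminal oligopyrimidine tract lay mostly above 0. Their median was 0.091 over 12 genes past the filter, with 4 below 0. EEF1A1, the elongation factor that delivers tRNA, read 10957 against 10700.1 (0.034), TPT1 9005 against 9074 (-0.011) and PABPC1, the poly(A)-binding protein, 10945 against 10226 (0.098). IPO7, an import receptor that carries ribosomal proteins among other cargo, was at least 2-fold higher at 1240 against 604 (1.04). EIF3F was the lowest, at 177 against 278 (-0.65). Of the 8 with a promoter entry, 7 had a tract exactly at the annotated start. Within the family, the 30 members past the filter with a tract at the start had a median of -0.33 and the 16 without one -0.34. Over all genes with a promoter entry, the medians were -0.027 for 514 with the tract and 0.0032 for 9605 without.

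Mitochondrial ribosomal proteins, which build the separate ribosome of the mitochondrion, lay between the family and all genes. Their median was -0.089 over 65 genes past the filter, with 46 below 0. It was -0.12 for 41 MRPL genes and -0.044 for 24 MRPS genes. With 1 array per group no test of a difference between these groups of genes was made.

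**Figure D5:**
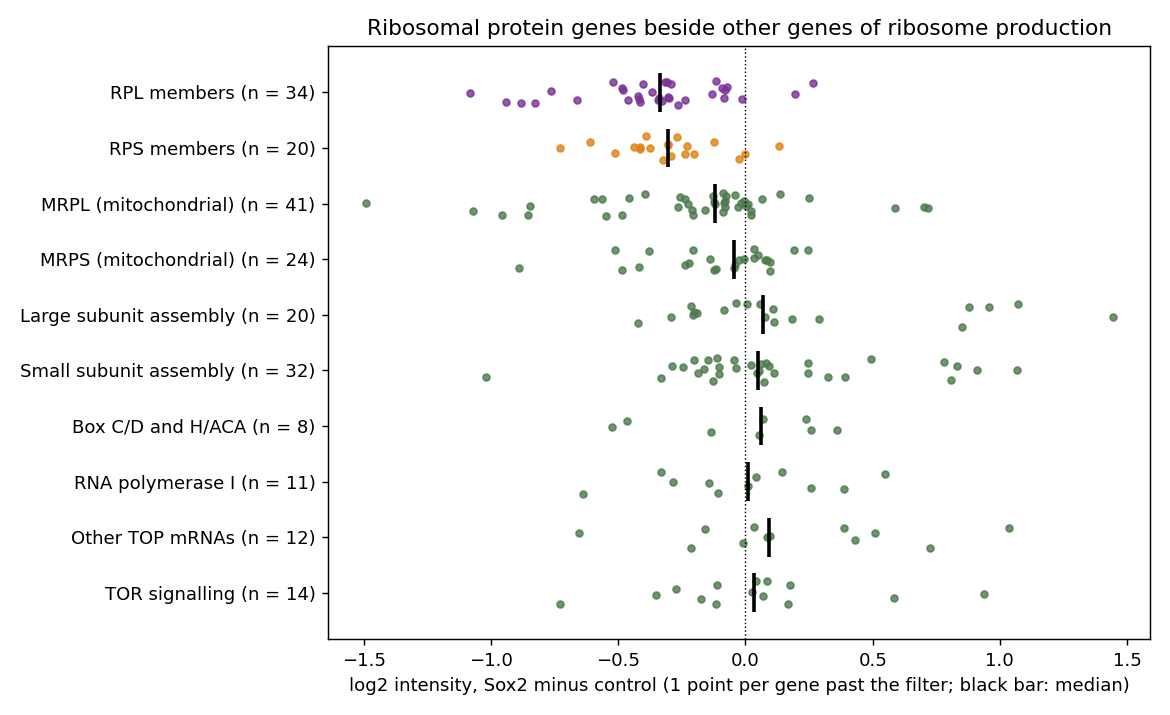
Log2 difference, Sox2 minus control on the unscaled arrays, for each gene past the filter in 10 groups, with black bars at the medians. RPL and RPS members sit at medians of -0.33 and -0.30, the mitochondrial MRPL and MRPS genes at -0.12 and -0.044, and the 6 other groups between 0.0091 and 0.091; scaling on the spike-ins would shift every point by 0.75 upward.

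Other motifs were searched on both strands of the promoter window, 250 bases before to 50 after the start. TTCCGG, an ETS factor core, was present in 30 of 52 members (57.7%) and 22.9% of all promoters. The members past the filter with and without it had medians of -0.33 and -0.34. CATTGT, the core bound by SOX proteins, was present in 2 of 52 members (3.85%) and 7.95% of all promoters. For RPL6, among those 2, the start used lies inside the gene. CACGTG, the E-box of MYC, was present in 3 of 52 (5.77%) and 8.88%. TATAAA was found in 5 of 52 members (9.62%) and 9.63% of all promoters. These are letters in a window and not evidence of binding.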

How the data were processed

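The deposited table holds linear intensities, with each probe set read once per array. RMA appears in the submitters' processing notes, but its version, its settings and the last scaling step are not stated there. Values were used as deposited, with a lowest intensity of 1, and taken to log2. Probe sets were named through the platform annotation, and symbols were updated through gene identifiers to RefSeq GRCh38.p14 (19735 of 19777 matched). Start sites came from a RefSeq promoter table, in which 52 of 60 members were matched. Array number limits the precision, and no detection call could be made.

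Genes named were the 6 largest differences of each subunit and direction, members at 2-fold, the 3 brightest of each subunit, members under the filter, paralogs with their partners, members with probe sets past the filter on both sides of 0 and 1 at 1.5-fold or more, and up to 3 genes of each of 8 lists. Other members were named for their role after their values were seen. The members, lists and role groups were chosen with earlier results of these data known. Alternatives covered the probe set, the filter, the scaling, the paralogs and the fold. The procedure was run on simulated data with known shifts and independent probe set errors. Those data held no error shared by the probe sets of an array, so the run cannot speak to such an error. Computations used Python 3.11.15, numpy 2.4.6, pandas 2.3.3, statsmodels 0.14.6 and matplotlib 3.10.9.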

Additional observations from a re-analysis of the deposited data

How the results depend on the processing

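No paired analysis was possible because each group holds 1 array, so leaving out a replicate was not possible either. With the exception of spike-in scaling, the median of the members stayed between -0.42 (lowess centring) and -0.28 (length trend removed) under every alternative run, and the gap between the members and all genes stayed between -0.46 and -0.28 under all of them. Spike-in scaling, chosen after seeing the data, reversed the medians to 0.43 for the family, 0.42 for RPL and 0.45 for RPS. It left 5 members below 0, 1 at least 2-fold higher and 0 at least 2-fold lower. On that scale the median of all genes also lies above 0, and the family median stays below it. The shares of all genes given above are for the unscaled arrays and do not apply to these counts. The count at least 2-fold lower was 2 with the probe set of the largest difference, 2 after quantile normalization, 2 with probe sets naming several genes and 3 with no filter. With the threshold set at 1.5-fold instead, 8 members were lower. Of members with a mean intensity of at least 1000, 26 of 27 were below 0. The RPL median was below the RPS median in all of them, with differences from -0.11 to -0.0013. Averaging probe sets, taking the one of largest difference and dropping those ending in _x_at or _s_at each moved 8 single genes by more than the technical SD. Probe sets with these endings were dropped only for genes that also had another kind. Genes such as RPL27, read only by such probe sets, kept them, so that alternative is not free of them. It left 41 of 48 members below 0 and 40 below the median gene. RPL14 (0.042), RPL22 (0.081), RPL37 (0.10), RPS14 (0.018) and RPS15 (0.11) moved above 0 in it, and RPL7 (-0.078) moved below 0. Length removal, the bright subset, the filter in both arrays and the use of several-gene probe sets were also added after seeing the data.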

Other observations

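Many ribosomal protein genes host small nucleolar RNAs in their introns, and their probe sets list those RNAs too, so they were left out above. There were 65 probe sets that name 1 member beside other genes, and 54 passed the filter. Their median log2 difference, Sox2 minus control, was -0.21, with 38 below 0 (70.4%), 4 at least 2-fold lower and 0 at least 2-fold higher. The other 1022 probe sets past the filter that name several genes had a median of -0.017, with 51.7% below 0, 9 at least 2-fold lower and 17 at least 2-fold higher. Adding them to the family gave 71 genes past the filter, of which 64 were below 0, with a median of -0.34.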
